A study of Homo sapiens with 6 samples.

Results

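Expression of 9 enzymes of serine synthesis and folate-bound one-carbon metabolism (PHGDH, PSAT1, PSPH, SHMT1, SHMT2, MTHFD1, MTHFD2, MTHFD1L and ALDH1L2) was examined in HGC27 cells by RNA-seq. HGC27 is an established cell line from an undifferentiated gastric cancer. The enzymes were chosen by pathway membership, with earlier group differences of these same RPKM values known, and were found by exact match of the gene symbol. All 9 symbols matched 1 row each, out of 39739 gene rows. HGC27-FN1 3′-UTR cells carried a lentiviral construct for overexpression of the 3′-UTR of fibronectin 1 (FN1), and were selected with puromycin. HGC27-control cells were the control line, whose vector is not given in the sources used here. Both were grown in RPMI-1640 medium with fetal bovine serum. Each group had 3 libraries (replicates 1 to 3). The puromycin-resistant cells were collected as a population, with no cloning described. The sources used here do not say whether the 3 libraries of a group came from separate cultures, so the errors and p-values measure only the spread between these libraries, which may be technical.

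Cells make serine from the glycolytic intermediate phosphoglycerate. PHGDH oxidises it, PSAT1 transfers an amino group from glutamate, and PSPH removes the phosphate. Serine hydroxymethyltransferases, SHMT1 in the cytosol and SHMT2 in mitochondria, then split serine into glycine and a single carbon unit carried by tetrahydrofolate. Folate enzymes oxidise or reduce that unit for the synthesis of purines, thymidylate and methionine, and mitochondria export it to the cytosol as formate. PHGDH is amplified or highly expressed in some tumours, and MTHFD2 is low in most adult tissues and high in many cancers. Several of these genes are known targets of the transcription factor ATF4, which is induced when amino acids are short.

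Expression was deposited as RPKM, which divides the reads of a gene by its merged exon length in kilobases and by the library's assigned reads, times 1000000. The 6 libraries held between 16357085 and 37037532 assigned reads. Replicate 1 was the shallowest library in both groups. The FN1 row, which covers the whole gene and not the 3′-UTR alone, was 0.777, 0.745 and 0.819 RPKM in replicates 1 to 3 of HGC27-FN1 3′-UTR cells and 0.543, 0.474 and 0.532 RPKM in HGC27-control cells. Of 2 mesenchymal markers, VIM was abundant in all 6 libraries, between 286 and 324 RPKM, whereas CDH2 had 11 reads or fewer in every library. The leukocyte marker PTPRC had 4 reads or fewer in every library and the endothelial marker PECAM1 had 0. The epithelial markers KRT18, KRT19, EPCAM and CDH1 were at 0.257 RPKM or less in the control libraries. Their sum with KRT8 was 2.59 to 2.99 RPKM in HGC27-control and 18.2 to 27.0 RPKM in HGC27-FN1 3′-UTR libraries, with all 5 markers higher. This rise moved with the group, as did every difference described here, and its part in them was not tested. In bulk RNA, fewer cells expressing a gene and less RNA per cell cannot be told apart.

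Of the 9 enzymes, 8 had a lower mean in HGC27-FN1 3′-UTR than in HGC27-control cells, and MTHFD1 did not. The decrease was 43.2% for PHGDH, 38.3% for PSAT1, 27.7% for MTHFD2, 25.9% for PSPH, 19.7% for ALDH1L2, 12.2% for SHMT1, 9.21% for MTHFD1L and 7.80% for SHMT2. Since the enzymes were selected on this contrast, these values are a description and no test is given for them. In 8 of 9 enzymes the groups did not overlap, all 3 HGC27-FN1 3′-UTR values lying below all 3 control values. Over all 23299 tested genes this held for 21.7%. By limma on log2(RPKM + 0.1) with Benjamini-Hochberg adjustment over all tested genes, 7.36% of genes were lower and 5.62% higher in the HGC27-FN1 3′-UTR group for an adjusted p under 0.05 (1715 and 1310 genes, and 1330 and 1696 with median-ratio scaling). The same criterion took in 6 of the 9 enzymes as lower and 0 as higher (0 also at an unadjusted p under 0.05 and with voom). Over 12 alternative analyses the count of lower enzymes ran from 4, as with the replicate number as a block, to 8 with voom. SHMT1 was called in 3 of the 12 and ALDH1L2 in 7. Nothing is read from these counts because the contrast was used in choosing the enzymes. The median log2 difference of the enzymes was −0.31, beside −0.04 over all tested genes.

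**Figure D1:**
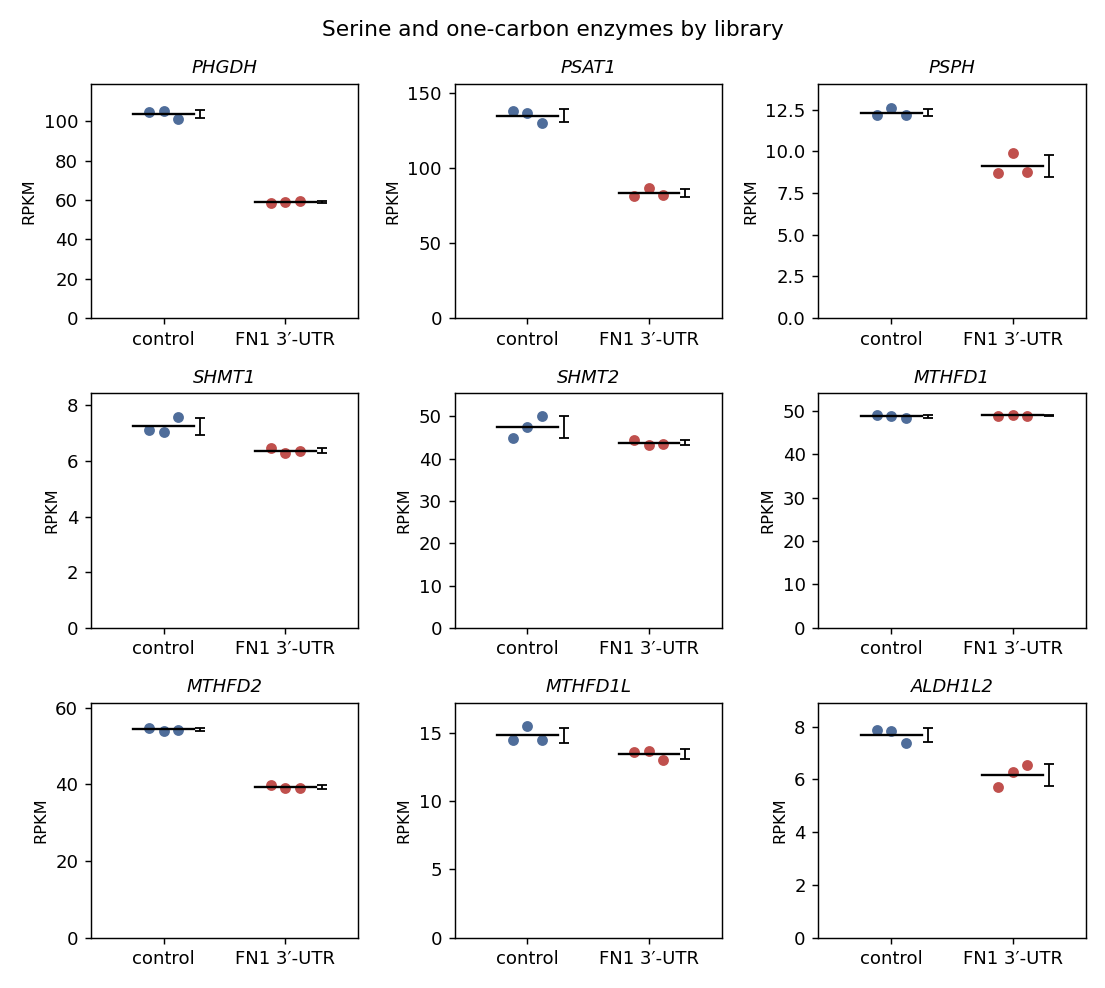
RPKM of each enzyme (y axis, from 0) in the 3 HGC27-control and the 3 HGC27-FN1 3′-UTR libraries. Points are libraries, the horizontal line is the mean and the bar beside it is the SD (n = 3). The groups are apart in every panel but that of MTHFD1, with the widest relative gap for PHGDH (103.8 against 58.9 RPKM).

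PHGDH catalyses the first and committed step of serine synthesis. Its row lies at chr1:119659798-119744215 on the forward strand (GRCh38) and has 5622 bases of merged exons. GENCODE release 29 gives the gene a start at 119648411 and an end at 119744226, whereas the other 8 enzymes have the same span in the deposited tables and that release. PHGDH was 104.8, 105.4 and 101.3 RPKM in replicates 1 to 3 of HGC27-control and 58.3, 59.1 and 59.5 RPKM in HGC27-FN1 3′-UTR cells. The control libraries were the 3 high ones, and the gap between the groups was many times the spread within either. The means were 103.8 ± 2.20 and 58.9 ± 0.595 RPKM (SD, n = 3), a log2 difference of −0.82 (SE 0.027). Among the 23299 tested genes, 553 had a difference as low as that or lower. With 5361 to 21093 reads per library, counting alone gives a coefficient of variation of at most 1.37%.

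PSAT1, the transaminase of the second step, lies at chr9:78297143-78330093 on the forward strand, with 2188 bases of merged exons. It was 138.5, 136.6 and 130.5 RPKM in the control and 81.7, 86.8 and 81.9 RPKM in the HGC27-FN1 3′-UTR libraries. Replicate 2 was the highest of the HGC27-FN1 3′-UTR libraries, still well under the lowest control. The means were 135.2 ± 4.15 and 83.4 ± 2.89 RPKM (SD, n = 3), and the log2 difference was −0.70 (SE 0.038). A pseudogene listed as PSAT1P3 had 0.618 reads for every 100 reads of PSAT1 and a log2 difference of −0.73 (SE 0.26). How reads that match both were counted is not given in the sources used here.

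PSPH, the phosphatase of the last step, was far less abundant than the first 2 enzymes. It lies at chr7:56011051-56051604 on the reverse strand, with 2762 bases of merged exons. PSPH was 12.2, 12.6 and 12.2 RPKM in the control and 8.70, 9.92 and 8.78 RPKM in the HGC27-FN1 3′-UTR libraries. Again replicate 2 was the highest HGC27-FN1 3′-UTR library for this gene, and no library of one group reached the other group. The means were 12.3 ± 0.222 and 9.13 ± 0.682 RPKM (SD, n = 3), with a log2 difference of −0.43 (SE 0.057). PSPH had the fewest reads of the 9, from 393 to 1247, for which counting gives a coefficient of variation of up to 5.04%. Its pseudogene PSPHP1 had 5.95 reads per 100 reads of PSPH and a log2 difference of 0.05. Reads that match both copies could have been split between them, so the PSPH value is less certain than those of PHGDH and PSAT1.

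SHMT1 and SHMT2 carry out the same reaction in different compartments. SHMT1 lies at chr17:18327860-18363563 on the reverse strand. It was 7.12, 7.03 and 7.59 RPKM in the control and 6.47, 6.28 and 6.36 RPKM in the HGC27-FN1 3′-UTR libraries. The groups were close together but did not overlap, with means of 7.25 ± 0.303 and 6.37 ± 0.0950 RPKM (SD, n = 3) and a log2 difference of −0.18 (SE 0.044). SHMT2 lies at chr12:57229327-57234935 on the forward strand. It was 45.0, 47.4 and 50.04 RPKM in the control and 44.4, 43.3 and 43.6 RPKM in the HGC27-FN1 3′-UTR libraries. Replicate 1 of the control and replicate 1 of HGC27-FN1 3′-UTR were almost level, and the means of 47.5 ± 2.53 and 43.8 ± 0.582 RPKM (SD, n = 3) gave a log2 difference of −0.12 (SE 0.043).

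MTHFD1 is the cytosolic enzyme that interconverts the folate-bound carbon units through 3 activities on a single polypeptide. It lies at chr14:64388031-64463457 on the forward strand. MTHFD1 was 48.9, 48.9 and 48.4 RPKM in the control and 48.9, 49.0 and 48.9 RPKM in the HGC27-FN1 3′-UTR libraries. The groups overlapped, the means were 48.7 ± 0.323 and 48.9 ± 0.0602 RPKM (SD, n = 3), and the log2 difference was 0.01 (SE 0.023). This gene, with 7500 to 16793 reads per library, was covered about as deeply as PHGDH. Its coefficient of variation was 0.663% in the control and 0.123% in the HGC27-FN1 3′-UTR libraries. Both were below the 1.15% that counting alone gives at 7500 reads, the count of HGC27-FN1 3′-UTR replicate 1. The control libraries held 10244 to 16793 reads, at which counting gives less than 1.15%.

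MTHFD2 is the mitochondrial dehydrogenase and cyclohydrolase of the same folate steps. It lies at chr2:74198562-74217565 on the forward strand. MTHFD2 was 54.8, 53.9 and 54.2 RPKM in the control and 39.8, 39.0 and 39.1 RPKM in the HGC27-FN1 3′-UTR libraries. Both groups were tight, with means of 54.3 ± 0.431 and 39.3 ± 0.420 RPKM (SD, n = 3), and the log2 difference was −0.47 (SE 0.024). MTHFD2 therefore had the third lowest difference of the 9, next to PSPH, whereas its cytosolic counterpart MTHFD1 was level.

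MTHFD1L makes formate from the folate-bound unit in mitochondria. It lies at chr6:150865549-151101887 on the forward strand. Of the enzymes with a promoter sequence in RefSeq, MTHFD1L alone held TGATGNAA (capitals), the letters of an amino acid response element, and its site is printed for that reason.
MTHFD1L, chr6:150866346-150866375 (GRCh38.p14), forward strand: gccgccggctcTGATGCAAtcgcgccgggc
MTHFD1L was 14.5, 15.5 and 14.4 RPKM in the control and 13.6, 13.7 and 13.0 RPKM in the HGC27-FN1 3′-UTR libraries. The groups were separate by under 1 RPKM, with means of 14.8 ± 0.579 and 13.4 ± 0.373 RPKM (SD, n = 3) and a log2 difference of −0.14 (SE 0.041). ALDH1L2 oxidises the formyl unit to carbon dioxide in mitochondria and yields NADPH. It lies at chr12:105019784-105084577 on the reverse strand. ALDH1L2 was 7.86, 7.84 and 7.38 RPKM in the control and 5.71, 6.29 and 6.53 RPKM in the HGC27-FN1 3′-UTR libraries. The values within each group varied more than for MTHFD2 but did not cross, the means were 7.69 ± 0.269 and 6.18 ± 0.425 RPKM (SD, n = 3), and the log2 difference was −0.31 (SE 0.060).

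**Figure D2:**
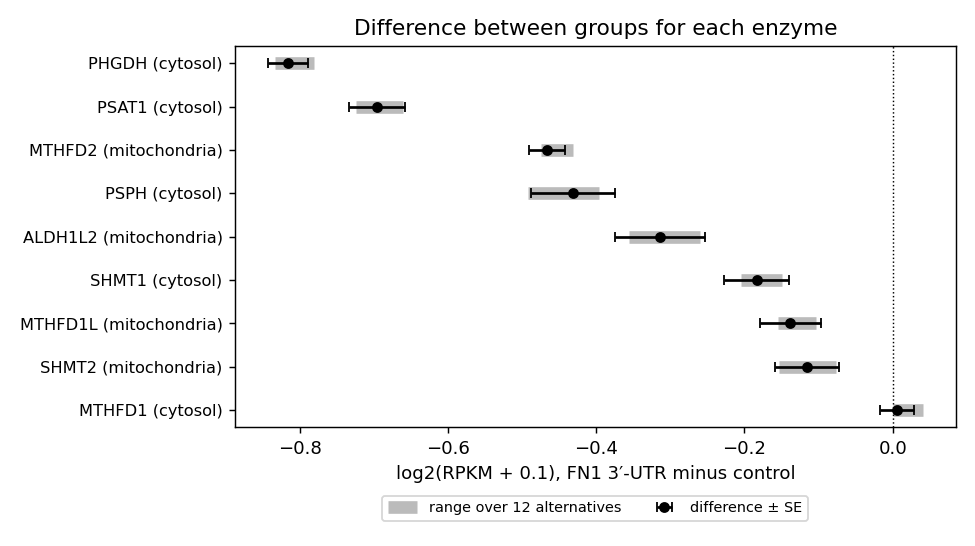
Log2 difference of each enzyme on the log2(RPKM + 0.1) scale (x axis), HGC27-FN1 3′-UTR minus HGC27-control, with its SE (black) and the range over 12 alternative analyses (grey). PHGDH is farthest from 0 at −0.82, followed by PSAT1 at −0.70, and MTHFD1 lies at 0.01.

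The 12 alternatives, which changed the scaling, the pseudocount, the filter or the fit or left out 1 library, moved no enzyme across 0. Another filter or the replicate number as a block leaves these differences unchanged. Leaving out 1 library cannot change the sign where the groups do not overlap, so a kept sign was in large part fixed beforehand. PHGDH stayed between −0.83 and −0.78, PSAT1 between −0.72 and −0.66, MTHFD2 between −0.47 and −0.43 and PSPH between −0.49 and −0.40. ALDH1L2 ran from −0.36 to −0.26, SHMT1 from −0.20 to −0.15, MTHFD1L from −0.15 to −0.10, SHMT2 from −0.15 to −0.08 and MTHFD1 from 0.00 to 0.04.

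Among themselves the enzymes spanned a wide range of levels in HGC27-control cells. On the RPKM scale, per kilobase of merged exons, the order was PSAT1, PHGDH, MTHFD2, MTHFD1, SHMT2, MTHFD1L, PSPH, ALDH1L2 and SHMT1, from 135.2 to 7.25 RPKM. Neighbours in this order whose library values overlapped were MTHFD1 with SHMT2 and ALDH1L2 with SHMT1. PSAT1 stood at rank 346 and PHGDH at rank 468 of the 23299 tested genes by control RPKM, and SHMT1 at rank 5826. Merged exons can be much longer than a transcript, 2.99 times for MTHFD1 and 2.95 times for SHMT1 but 1.09 times for MTHFD2. With reads divided by the length of the principal transcript in GENCODE release 29, PHGDH was highest at 225.8 ± 4.79 reads per kilobase per 1000000 reads (SD, n = 3). It was followed by MTHFD1 at 145.7, PSAT1 at 135.2, SHMT2 at 90.6, MTHFD2 at 59.3, SHMT1 at 21.4, MTHFD1L at 20.6, PSPH at 15.6 and ALDH1L2 at 8.67. The order of PHGDH and PSAT1, and of MTHFD1 and MTHFD2, thus depended on the length used. The difference between the groups for any 1 gene does not depend on it.

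**Figure D3:**
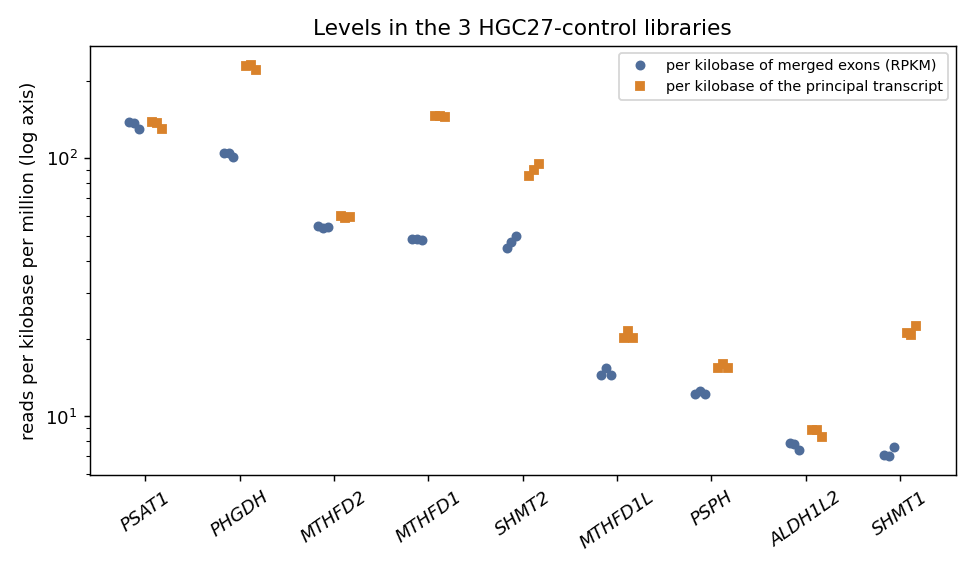
Levels of the enzymes in the 3 HGC27-control libraries on a log axis, as reads per kilobase per 1000000 reads, with the length taken as merged exons (circles) or as the principal transcript (squares). PHGDH rises from 103.8 to 225.8 and MTHFD1 from 48.7 to 145.7 when the principal transcript is used, and PSAT1 stays at 135.2.

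As a share of each library, the 9 enzymes together took 2060, 2072 and 2039 reads per 1000000 in the control and 1562, 1576 and 1564 in the HGC27-FN1 3′-UTR libraries, 23.8% less. The 3 serine synthesis enzymes took 925.6, 926.1 and 888.8 reads per 1000000 in the control and 530.5, 549.4 and 537.7 in the HGC27-FN1 3′-UTR libraries, 41.0% less. The 4 mitochondrial enzymes took 623.8, 636.4 and 641.3 reads per 1000000 in the control and 525.5, 521.7 and 522.0 in the HGC27-FN1 3′-UTR libraries, 17.5% less. The serine synthesis enzymes thus accounted for the larger part of the decrease of the 9. None of these sums overlapped between groups.

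Ratios within a library are free of the scaling between libraries. MTHFD2 to MTHFD1, mitochondrial to cytosolic, was 1.119, 1.102 and 1.121 in the control and 0.813, 0.796 and 0.800 in the HGC27-FN1 3′-UTR libraries. The mitochondrial enzyme thus passed from above to below the cytosolic one on the RPKM scale, but this crossing depends on the length used. Per kilobase of the principal transcript, MTHFD2 was below MTHFD1 in both groups. It was at 59.3 against 145.7 in the control, and at 42.6 to 43.5 against 146.1 to 146.5 in the HGC27-FN1 3′-UTR libraries. SHMT2 to SHMT1, the other such pair, moved the other way and little, from 6.55 ± 0.214 to 6.88 ± 0.0274 (SD, n = 3). PHGDH to MTHFD1 went from 2.13 ± 0.0314 to 1.205 ± 0.0123. PHGDH to PSPH went from 8.42 ± 0.141 to 6.48 ± 0.453, so the first enzyme of serine synthesis was lower relative to the last as well. PHGDH to PSAT1 differed least of the ratios within serine synthesis, at 0.768 ± 0.0102 and 0.707 ± 0.0236.

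**Figure D4:**
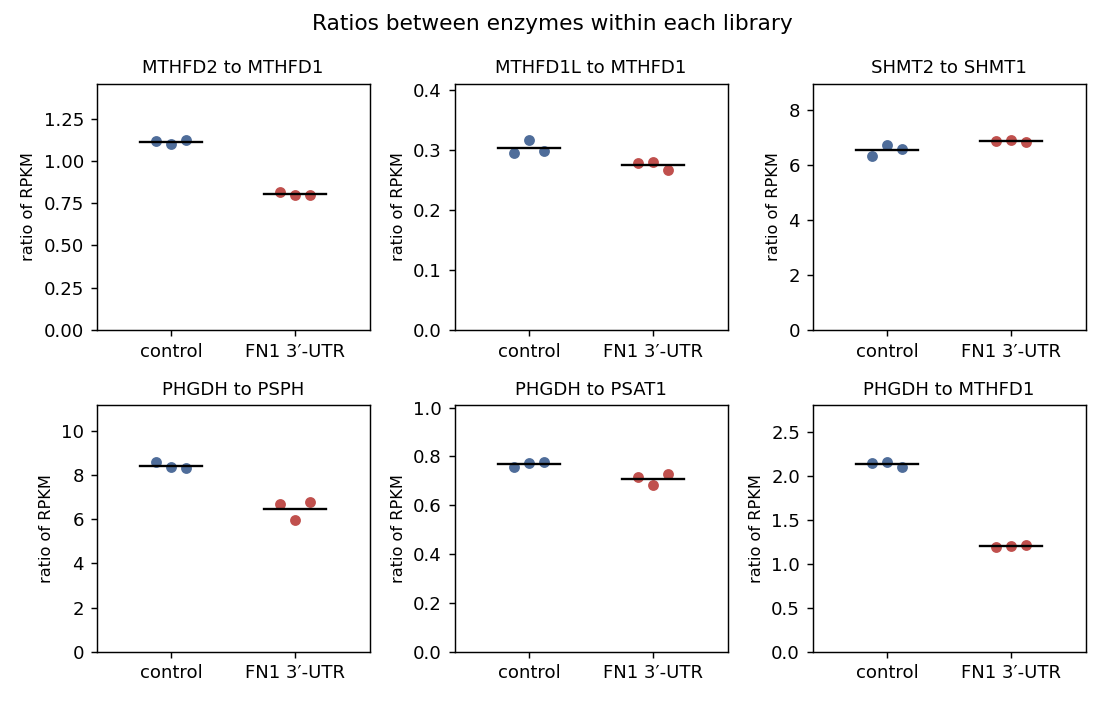
Ratios of the RPKM of 2 enzymes (y axes, from 0) in each library of HGC27-control and HGC27-FN1 3′-UTR cells, with the mean as a line (n = 3). MTHFD2 to MTHFD1 drops from 1.11 to 0.803 while SHMT2 to SHMT1 is 6.55 and 6.88.

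Several of the rows share exonic bases with a row on the opposite strand. The libraries were strand-specific, but whether the counting used the strand is not given in the sources used here, so such reads may not have been kept apart. RP11-287D1.3, antisense to MTHFD2, shares 6.06% of its exonic bases. It was at 20.4 RPKM in the control with a log2 difference of −0.27, next to −0.47 for MTHFD2. SLC4A5 shares 27.2% of the exonic bases of MTHFD2 and was at 0.546 RPKM or less in every library, with a log2 difference of −0.40. RP11-123K3.9, antisense to SHMT2, was at 25.8 RPKM in the control with a log2 difference of −0.05. NDUFA4L2 shares 33 exonic bases with SHMT2 and was at 2.88 RPKM in the control, with a log2 difference of −0.94. CTD-2555O16.4 shares 8.06% of the exonic bases of MTHFD1 and was at 37.8 RPKM in the control, with a log2 difference of 0.05. SMCR8 shares 2.69% of the exonic bases of SHMT1, at 5.89 RPKM in the control with a log2 difference of −0.26, next to −0.18 for SHMT1. C12orf45 shares 1.70% of those of ALDH1L2, with a log2 difference of 0.11. PHGDH, PSAT1, PSPH and MTHFD1L had no such row.

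The genes whose pattern over the 6 libraries was most like that of PHGDH were ranked by the root-mean-square difference of log2(RPKM + 0.1), each gene centred on its own mean, among 4566 genes with a mean of at least 10 RPKM. PSAT1 ranked 5 (0.067), MTHFD2 ranked 32 (0.18) and PSPH ranked 46 (0.20). MTHFD1L at 644, SHMT2 at 866 and MTHFD1 at 2122 were far down the order. The 10 closest were TRIM51CP, PCK2, RP1-261G23.7, SERPINF1, PSAT1, ATF4, NEFL, CHODL, GPT2 and AARS, with differences from 0.037 to 0.10. PCK2 is the mitochondrial phosphoenolpyruvate carboxykinase, GPT2 the mitochondrial alanine aminotransferase and AARS the alanyl-tRNA synthetase. PCK2 was 18.7, 18.1 and 17.5 RPKM in the control and 9.66, 9.31 and 9.41 RPKM in the HGC27-FN1 3′-UTR libraries. With 2 groups of 3 libraries, this likeness mostly ranks genes by the size of the group difference, and it is a description.

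Genes around the enzymes were taken from 9 lists, 127 genes in all, of which 111 were tested. By limma, 27 were lower and 6 higher in the HGC27-FN1 3′-UTR libraries with an adjusted p under 0.05 over all tested genes, and 78 were not called. With median-ratio scaling, which moved the median of all genes by 0.03, the split was 25 lower and 12 higher. The lists were drawn up with results of these data known.

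Each list is described by its counts, which are to be read beside the 7.36% lower and 5.62% higher over all tested genes, and the lists were not tested against each other. In the folate cycle, 0 of 10 tested genes were called in either direction by limma at the adjusted p, and the median log2 difference was 0.04. At an unadjusted p under 0.05 there were 2, both higher, and 2 were called higher with median-ratio scaling and 1 with voom on recovered reads. Its most abundant gene, TYMS, the thymidylate synthase that uses a folate-bound carbon, was 143.7 ± 1.75 RPKM in the control and 151.4 ± 1.42 RPKM in the HGC27-FN1 3′-UTR libraries (SD, n = 3), with an adjusted p of 0.099 by limma. In glycolysis down to phosphoglycerate, 0 of 11 were called by limma (1 lower at an unadjusted p under 0.05 and 1 lower with voom), and the median was −0.01. GAPDH was 814.6 ± 43.1 and 827.7 ± 19.1 RPKM. In serine-using lipid synthesis 0 of 8 were called by limma (0 at an unadjusted p under 0.05 and 0 with voom), with SPTLC1, a subunit of serine palmitoyltransferase, at 20.9 ± 0.514 and 20.8 ± 0.525 RPKM. In purine synthesis 1 of 11 was called, ATIC, higher by 0.16 on the log2 scale. This call was kept in 6 of 12 alternatives and lost when any library other than control replicate 3 was left out, while 4 genes of the list were called higher with median-ratio scaling and 3 with voom. IMPDH2, the most abundant gene of that list, was 78.1 ± 1.998 RPKM in the control and 78.9 ± 2.61 RPKM in the HGC27-FN1 3′-UTR libraries.

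Transporters of serine, glycine and folate moved in both directions, with 3 of 14 lower and 3 higher and a median of 0.03. SLC1A4, an exchanger of serine and alanine, was 1.64, 1.61 and 1.42 RPKM in the control and 0.723, 0.791 and 0.661 RPKM in the HGC27-FN1 3′-UTR libraries, a log2 difference of −1.005 (limma adjusted p 0.0038). SLC1A5, the glutamine and neutral amino acid transporter, was 62.2, 65.3 and 67.6 RPKM against 45.2, 44.4 and 44.9 RPKM, with a log2 difference of −0.53 (limma adjusted p 0.0011). The glycine transporter SLC6A9 was lower by a log2 difference of −0.56 (limma adjusted p 0.0034). The 3 lower transporters are amino acid carriers of the plasma membrane. Other amino acid carriers of the list, among them SLC38A1 (−0.04), SLC38A2 (0.12) and SLC36A1 (−0.15), were not called. The 3 higher transporters were the folate receptor FOLR1 (0.58), the mitochondrial folate carrier SLC25A32 (0.38) and the mitochondrial sideroflexin SFXN3 (0.31). The FOLR1 call was kept in 6 of 12 alternatives and that of SFXN3 in 9, and both were lost without control replicate 1 or 2, which left 1 higher transporter. FOLR1 was also lost without HGC27-FN1 3′-UTR replicate 2 or 3 and without control replicate 3. The calls of the other 4 transporters were kept in all 12.

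Of 7 tested genes of glycine cleavage and other serine and glycine enzymes, SDSL was lower (−0.56, limma adjusted p 0.037) and SRR, the serine racemase, was higher (0.25, limma adjusted p 0.026). SDSL rested on 107 reads over the HGC27-FN1 3′-UTR libraries and 211 over the control, and its call was kept in 3 of the 11 alternatives that tested it and lost with any library left out. The SRR call was kept in 6 of 12 and lost when any library other than HGC27-FN1 3′-UTR replicate 2 was left out. At an unadjusted p under 0.05 there were 2 lower and 1 higher, and the counts called with voom were the same. GLDC, not called in the main fit (−0.51, limma adjusted p 0.14), was called lower with voom. It rested on 107 reads over the HGC27-FN1 3′-UTR libraries and 223 over the control. In the methionine cycle, transsulfuration and glutathione synthesis 2 of 13 were lower, the cystathionine gamma-lyase CTH (−0.45) and the methionine synthase MTR (−0.14), with a median of −0.08. The MTR call was kept in 3 of 12 alternatives and lost with median-ratio scaling and with any library left out, and that of CTH was kept in 10 and lost without control replicate 2. With voom 3 genes of this list were lower and 1, NNMT, was higher, and at an unadjusted p under 0.05 there were 3 lower and 2 higher. NNMT had a log2 difference of 1.21 (limma adjusted p 0.053). It rested on 37 reads over the HGC27-FN1 3′-UTR libraries and 5 over the control. MAT2A, the most abundant gene of that list, was 85.4 ± 3.58 RPKM in the control and 88.7 ± 3.42 RPKM in the HGC27-FN1 3′-UTR libraries.

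In other amino acid synthesis 7 of 18 were lower and 0 higher by limma, with a median of −0.11. The count of lower genes was 4 without HGC27-FN1 3′-UTR replicate 2 or 3 and without control replicate 2 or 3, 5 without HGC27-FN1 3′-UTR replicate 1 and 6 without control replicate 1. In the higher direction 1 gene had an unadjusted p under 0.05 and 1 was called with voom. ASNS, the asparagine synthetase, was 25.6, 25.03 and 25.4 RPKM in the control and 10.5, 10.6 and 10.6 RPKM in the HGC27-FN1 3′-UTR libraries. Its log2 difference of −1.25 (SE 0.027, limma adjusted p 6.6e-05) was beyond that of any of the 9 enzymes. GPT2 was 17.3, 17.1 and 17.3 RPKM against 8.15, 8.75 and 8.70 RPKM, a log2 difference of −1.01 (limma adjusted p 0.00019). ASS1, the argininosuccinate synthase, had a log2 difference of −0.47 and PYCR1, an enzyme of proline synthesis, −0.39.

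In the list of ATF4 and genes of its stress response, 14 of 19 were lower and 1 was higher, and the median log2 difference was −0.51. ATF4 itself was 244.3, 239.2 and 246.3 RPKM in the control and 153.2, 152.0 and 153.1 RPKM in the HGC27-FN1 3′-UTR libraries, lower in all 3, with a log2 difference of −0.67 (SE 0.025, limma adjusted p 0.00019). DDIT4, an inhibitor of mTORC1 signalling, was 38.8, 37.2 and 38.1 RPKM against 13.2, 14.1 and 12.8 RPKM, a log2 difference of −1.50. NUPR1, a stress-induced chromatin protein, had a difference of −1.27, CHAC1, which degrades glutathione, −1.04, and PCK2 −0.93. PPP1R15A, the phosphatase subunit that acts on the initiation factor eIF2α, was higher by 0.50 (limma adjusted p 0.0033). The 4 genes of the list that were not called were SLC7A11 (0.10), SLC7A5 (−0.07), ATF5 (−0.09) and ATF3 (−0.24). This list was drawn up knowing that ATF4 and some of its genes were lower in these libraries, so its count is not independent evidence of a direction.

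**Figure D5:**
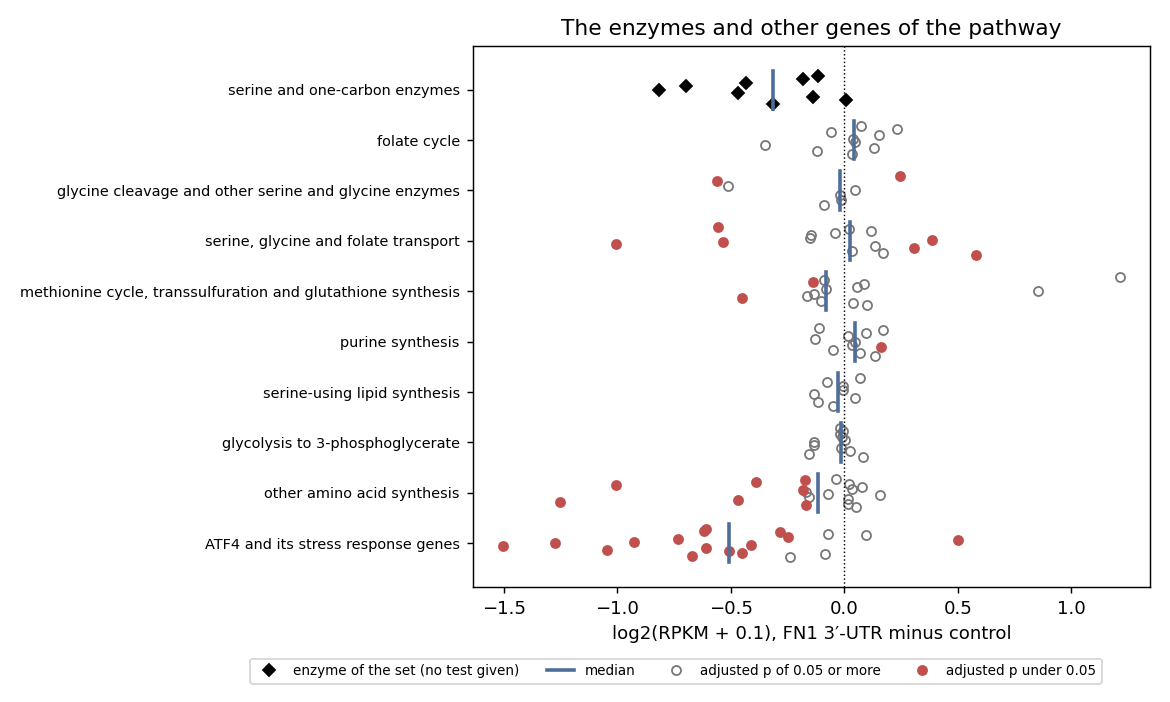
Log2 difference (x axis, log2(RPKM + 0.1) scale, HGC27-FN1 3′-UTR minus HGC27-control) of the 9 enzymes (diamonds, no test given) and of 111 genes in 9 lists, 1 point per gene. Filled circles have an adjusted p under 0.05 by limma and the bar is the median. The folate cycle and glycolysis lists lie around 0 with 0 calls, and the ATF4 list has its median at −0.51.

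Promoter windows of 250 bases before to 50 after the start site (RefSeq, GRCh38.p14) were searched on both strands for TGATGNAA, the letters shared by the amino acid response elements that ATF4 binds with a C/EBP partner. It occurred in 1270 of 35116 windows (3.62%). Of the 9 enzymes, 6 had windows, 9 in all, and the letters were in 3 overlapping windows of MTHFD1L, at a single site, and in 0 windows of PHGDH, PSAT1, SHMT1, MTHFD1 and MTHFD2, which says only that they are not in these windows. Among the tested list genes with a window, they were in 7 of 21 called lower, 0 of 4 called higher and 6 of 63 not called. A gene may have several windows, so these counts per gene cannot be set against the 3.62% per window. They also include the ATF4 list, which was drawn up with the direction of some of its genes known. Nothing is therefore read from the shares. The sites of the 7 lower genes are given on the strand that reads TGATGNAA, with these letters in capitals, to be set beside the MTHFD1L site printed with that gene. A match is a description, and binding was not measured.
ASNS, chr7:97872458-97872487, reverse strand: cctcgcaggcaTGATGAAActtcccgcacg
CHAC1, chr15:40953251-40953280, reverse strand: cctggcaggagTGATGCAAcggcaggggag
CEBPG, chr19:33374060-33374089, forward strand: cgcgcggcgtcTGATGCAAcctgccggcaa
SLC1A4, chr2:64989381-64989410, reverse strand: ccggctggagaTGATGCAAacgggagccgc
SLC1A5, chr19:46784893-46784922, reverse strand: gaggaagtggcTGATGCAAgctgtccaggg
GOT1, chr10:99430804-99430833, forward strand: gctgccgagaaTGATGCAAccaatgcaatt
SLC3A2, chr11:62881725-62881748, reverse strand: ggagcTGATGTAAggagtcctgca
The letters CACGTG, the E-box read by MYC and related factors and the same on both strands, were in 7.26% of all windows and in windows of MTHFD1 and MTHFD1L. The enzymes whose windows held neither motif were PHGDH, PSAT1, SHMT1 and MTHFD2, with log2 differences of −0.82, −0.70, −0.18 and −0.47. Those with a motif were MTHFD1L at −0.14 and MTHFD1 at 0.01. PSPH, SHMT2 and ALDH1L2 had no window. Whether the differences go with either motif was not tested.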

How the data were processed

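RNA-seq of 6 HGC27 libraries was analysed, grouped by the sample labels. The authors deposited RPKM per gene, 1 table per library. The submitters' processing notes name Trimmomatic 0.36, STAR 2.5.3a, featureCounts, Subread 1.5.1 and GRCh38. The annotation release and the handling of strand, duplicates and multiple matches in counting are not given in the sources used here. Multiplying back by length and depth recovered the reads, whole within 0.1 read for 100% of values.

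Genes below 0.1 RPKM in more than 3 of the 6 libraries were left out, and log2(RPKM + 0.1) was fitted with limma 3.58.1 in R 4.3.3 with group as the only term and a trend in the prior variance, two-sided, with Benjamini-Hochberg adjustment. The pseudocount makes differences of low genes smaller than they are. The fit was tested on simulated data whose changes were larger than any log2 difference given here, so that test does not cover the small differences. Alternatives were another pseudocount, filter or scaling, voom on recovered reads, the replicate number as a block and each library left out. The level per principal transcript was added after seeing the data.

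The members and lists were chosen with earlier results of these data known. Named genes were all members, the called list genes with an absolute log2 difference of at least 0.5 (at most 4 per list, or the most abundant gene of a list with none), the 10 genes nearest to PHGDH and FN1. Other names were given after their values were seen. Python 3.11.15 was used with numpy 2.4.6, pandas 2.3.3 and, for plots, matplotlib 3.10.9.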

Additional observations from a re-analysis of the deposited data

How the results depend on the processing

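The 9 enzymes kept the sign of their log2 difference under all 12 alternatives, several of which could not have changed it. The number of list genes called higher, 6 as reported, was 12 with median-ratio scaling, 3 with the replicate block, 12 with voom on recovered reads and 2 to 5 with 1 library left out. The lowest value, 2, was reached without control replicate 1 and without control replicate 2, and 3 without HGC27-FN1 3′-UTR replicate 3. List genes called lower, 27 as reported, numbered 20 with the replicate block, 31 with voom and 19 to 24 with 1 library left out. Of the 33 list genes called, 20 were called in the same direction under every alternative and 0 changed direction. Over all tested genes, 1715 lower and 1310 higher became 598 and 564 with the replicate block, 3065 and 2043 with voom, and 470 to 1015 and 501 to 927 with 1 library left out, fewest without control replicate 2.

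Same-numbered libraries did not deviate together, with correlations of −0.03, 0.03 and −0.01 for replicates 1 to 3 over 13568 genes, so the numbers were not taken as pairs. SDSL, FOLR1 and CHAC1 each had under 1000 reads over the 6 libraries. Leaving out 1 library leaves 2 against 3, with the spread pooled over both groups.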
